A study of Mus musculus with 3 samples.

Results

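The genes of MHC class I antigen presentation were followed through the cells of mouse gliomas driven by human EGFR. The set was a fixed list of 10 of the 50262 genes in the count table. It held the chains H2-K1, H2-D1 and B2m, the transport and loading genes Tap1, Tap2 and Tapbp, the immunoproteasome subunits Psmb8, Psmb9 and Psmb10, and the transactivator Nlrc5. Members were listed by gene name, with no threshold on a measured value, and none of them was used to group the cells. The measurement was single-cell RNA sequencing on the inDrop platform, in which each captured transcript carries a unique molecular identifier (UMI). Levels are given as counts per 1000000 UMIs of a group of cells (CPM).

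All animals carried a conditional transgene for wild-type human EGFR, Cdkn2a-/- alleles and a conditional luciferase reporter. The tumors were started by a lentivirus that delivered Cre recombinase, together with the EGFR ligand TGFα, to the striatum of adult mice. The control cells inside these brains therefore also lacked Cdkn2a. Dissociated brain was sorted on CD45, a surface protein of leukocytes, into a CD45+ and a CD45- fraction. Tumors were taken at an early, a medium and a late (labelled large) stage, with 1 tumor sample per stage. The methods of the study state that early tumors were pooled from 2 and name no medium stage. Whether the medium sample was pooled is not given there. The 3 deposited samples are sequencing runs that each mix all stages and both sorts. The tumor samples used here as pairs and blocks are instead the 3 stages of the deposited library annotation, with 4 libraries per stage and sort, read from the protocol as repeat captures of 1 sample. Stages were therefore described and not tested. The mice were of mixed background, the H2 haplotype of each animal was not given in the sources used here, and brains without a tumor were not analysed here.

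Class I molecules show peptides from inside the cell to CD8 T cells. The immunoproteasome cuts proteins, the TAP transporter moves the peptides into the endoplasmic reticulum, tapasin (Tapbp) helps to load them, and the heavy chain pairs with β2-microglobulin (B2m) on the way to the surface. The genes are inducible by interferons, in part through Irf1 and Nlrc5, and neurons and resting macroglia are known for low levels.

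In the GENCODE annotation of GRCm38, 7 members lay on chromosome 17 within the MHC region. Their positions were chr17:33996017-34000347 for H2-K1, chr17:35262730-35267499 for H2-D1, chr17:33915899-33929292 for Tapbp, chr17:34181987-34187764 for Psmb9, chr17:34187553-34197225 for Tap1, chr17:34197721-34201454 for Psmb8 and chr17:34203527-34216321 for Tap2. B2m lay at chr2:122147686-122153083, Psmb10 at chr8:105935735-105938444 and Nlrc5 at chr8:94434356-94527272. Promoter windows from RefSeq on GRCm38.p6 matched 8 of the 10 members. The missing ones were Tap2 and Nlrc5. Sequence from 250 bases upstream to the start is shown for a heavy chain and for its partner chain, since both genes moved together in the results. Capitals mark, in H2-K1 (chr17:34000348-34000597, minus strand), a run of 47 bases that H2-D1 also holds, and in B2m (chr2:122147437-122147686, plus strand) the letters GAAACTGAAA.
H2-K1: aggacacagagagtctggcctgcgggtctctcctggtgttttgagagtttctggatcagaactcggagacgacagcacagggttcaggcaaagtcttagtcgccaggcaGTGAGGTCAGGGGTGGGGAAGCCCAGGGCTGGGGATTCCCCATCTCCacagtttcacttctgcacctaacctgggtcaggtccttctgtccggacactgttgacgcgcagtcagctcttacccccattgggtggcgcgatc
B2m: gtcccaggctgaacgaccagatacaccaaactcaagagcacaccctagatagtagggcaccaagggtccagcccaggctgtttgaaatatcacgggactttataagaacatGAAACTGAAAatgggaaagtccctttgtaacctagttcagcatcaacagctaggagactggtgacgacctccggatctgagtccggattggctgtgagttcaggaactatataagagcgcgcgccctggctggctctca

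The 47-base run began at -141 from the start in H2-K1 and at -201 in H2-D1, and no window of another gene held it. The interferon-stimulated response element was searched as GAAANNGAAA or TTTCNNTTTC and was found in 1 of the 8 member windows, B2m at -139 to -130, and in 3.04% of all 27025 windows. The interferon-gamma activated site, TTCNNNGAA on either strand, was in 1 of 8, Psmb8 at -97 to -89 as TTCCCAGAA, and in 7.18% of all windows. The CCAAT box (CCAAT or ATTGG) was in 6 of 8 and in 34.5% of all windows, and the core letters of the cyclic AMP response element (TGACG or CGTCA) in 5 of 8 and in 17.9%. Positions count from the RefSeq start, and the windows of H2-D1, Tapbp, Psmb8 and Psmb9 lay inside the GENCODE spans of these genes given above. A match describes these letters only, and a window without a match can still hold a variant of the element that the strict letters miss.

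The table held 20811 cells, of which 17755 passed the limits on UMIs, genes, mitochondrial share and doublets. They came from 24 libraries in 3 sequencing runs. The CD45+ sort had 2105 to 5092 cells per stage (median UMIs per cell 1965 to 2111) and the CD45- sort 1603 to 2723 (median 2276 to 3078). Cells of libraries of the same stage and sort shared a barcode in 1547 pairs (55.1 per 1000000 pairs of cells), against 1358 pairs (7.69 per 1000000) between other libraries, and counting each barcode once left 1574 to 5003 cells per stage and sort. Clusters were named from markers, and 5 of 39 clusters with 785 cells stayed unnamed. Among these, a cluster with Cxcl13 and Ifi44 among its leading genes held 1 early, 176 medium and 2 late CD45+ cells. It is in no class, and what it would add to the medium levels of the myeloid classes was not tested. The human EGFR+ class was the CD45- cells of 4 clusters with at least 30 such cells, of which at least 25% held a UMI of the transgene. An unnamed cluster with 10 CD45- cells, 60% of them with a transgene UMI, was too small and was left out. The class held 44 early, 359 medium and 1078 late cells, of which 4, 304 and 922 had a transgene UMI. The clusters were of a Pdgfra-type or an Lgals1-type, by the higher of these 2 genes. The 40 early Pdgfra-type cells had no transgene UMI (exact upper 95% limit 41.3 CPM), so the early cells of the class are mostly not marked as tumor cells by it. The transgene stood at 1926 CPM (medium) and 1927 (late).

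Among classes, the leukocytes and the endothelium held the chains in every sample, and macroglia and neurons held few. B2m, the chain common to all class I molecules, stood at 2986 (early), 4777 (medium) and 1873 (late) CPM in microglia-like cells. In macrophage or monocyte-like cells B2m was 4207, 5107 and 1882, and in T cell-like cells 3594, 4136 and 2639. Endothelial cell-like cells had 1621, 1976 and 1386. Oligodendrocyte-like cells had 123, 576 and 33.5, astrocyte-like cells 184, 362 and 47.7, and neuron or neuroblast-like cells 27.9, 145 and 8.39. All values of these macroglia and neurons lay below all values of the leukocytes and the endothelium. The human EGFR+ class was the exception to such a division, with 286, 2901 and 313. In the early and late samples it lay below every leukocyte and endothelial value, and in the medium sample above the endothelium and between the microglia-like values of the early and late samples. Within the medium sample it lay below the microglia-like, macrophage or monocyte-like and T cell-like values.

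**Figure D1:**
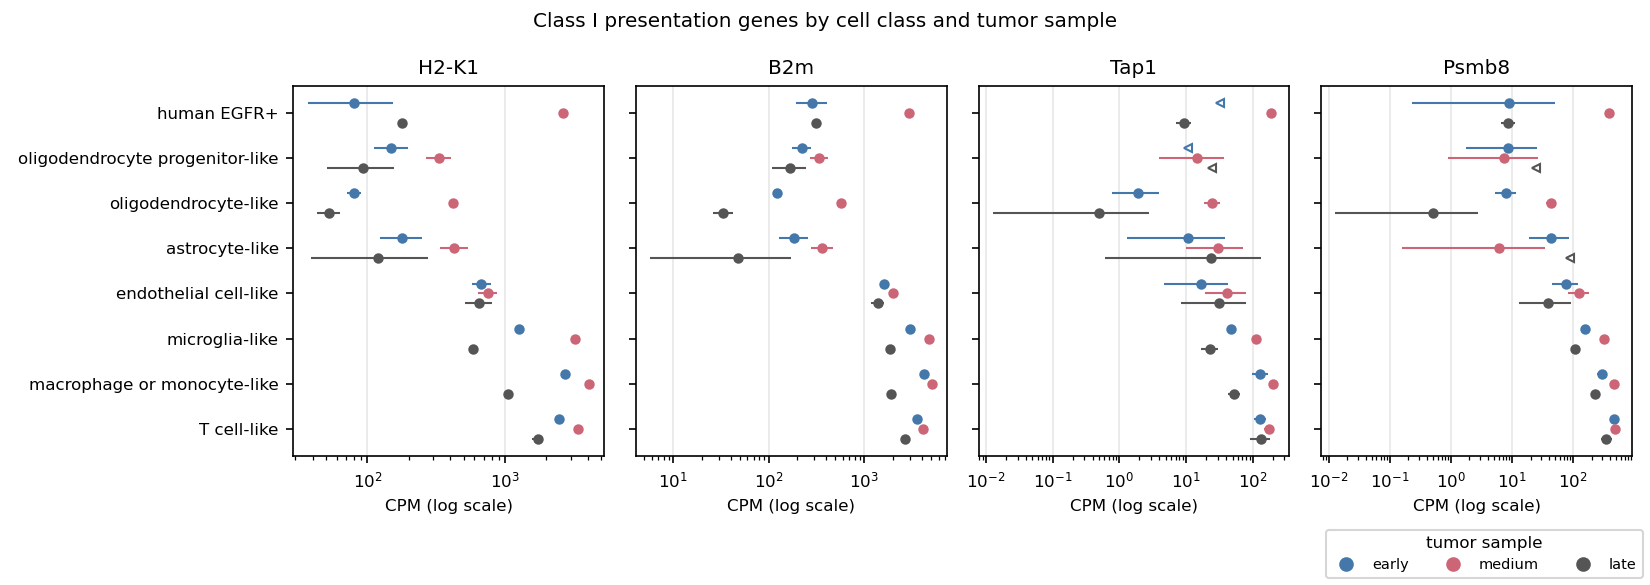
Levels of 4 members, from the chains, the transporter and the immunoproteasome, in CPM on log axes, for 8 cell classes in the early, medium and late tumor samples. Bars are exact Poisson 95% intervals, which cover counting error only, and open triangles stand at the upper limit where no UMI was counted. For H2-K1 and B2m, human EGFR+ cells of the medium sample (H2-K1 2624) lie above the macroglia and endothelium of that sample and below its myeloid cells. Those of the late sample (H2-K1 177) lie far lower.

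H2-K1, a classical heavy chain, was again low in macroglia and high in myeloid cells. Its level was 1261, 3233 and 585 CPM in microglia-like cells of the early, medium and late samples and 2727, 4091 and 1055 in macrophage or monocyte-like cells. It was 79.5, 423 and 52.5 in oligodendrocyte-like, 149, 330 and 93.7 in oligodendrocyte progenitor-like and 178, 429 and 119 in astrocyte-like cells. In the human EGFR+ class it was 80.3, 2624 and 177. The medium sample was the highest of the 3 in each of these classes. In endothelial cell-like cells H2-K1 was 675, 747 and 646, and the ratio of medium to late was 1.16 (exact 95% interval 0.882 to 1.53), so that a difference in H2-K1 was not detectable at this depth. The B2m level of these cells, given above, was higher in the medium than in the late sample.

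The comparison of the sorts asked where class I genes are expressed as a whole, and all 10 members were higher in CD45+ cells. B2m was 3040, 4208 and 1793 CPM in the CD45+ sort of the early, medium and late samples and 458, 1621 and 264 in the CD45- sort. H2-K1 was 1446, 3140 and 845 against 235, 1324 and 149, and H2-D1 was 2106, 4265 and 1149 against 368, 2103 and 150. For each of these chains the CD45+ value was the higher one in 3 of 3 samples, and the CD45- value of the medium sample exceeded the CD45+ value of the late sample for H2-K1 and H2-D1 but not for B2m. Psmb8, a catalytic subunit of the immunoproteasome, was 189, 411 and 176 against 22.5, 173 and 9.11. Nlrc5, the transactivator of class I promoters, was low throughout, at 7.95, 18.5 and 4.10 against 0.618, 8.38 and 0.759.

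With sums per sample and sort and the tumor sample as a block, edgeR called 10 of 10 members higher in CD45+ cells, where 20.4% of the 18428 genes tested were called higher. The log2 fold change was 2.66 ± 0.37 (SE, 3 pairs) for B2m with a Benjamini-Hochberg adjusted p of 0.0010, 2.49 ± 0.35 for H2-K1 and 2.53 ± 0.42 for H2-D1. The largest was 3.21 ± 0.57 for Psmb8 (edgeR, Benjamini-Hochberg adjusted p = 0.0040) and the smallest 1.79 ± 0.22 for Psmb10. Without the block 3 members were called beside 18.8% of genes, near the share of all genes. With the block, p-values measure how far the difference between the sorts varied over these 3 tumor samples, which are 3 stages. A sort is a mix of cell types, so more expressing cells and more RNA per cell cannot be told apart in it. The ratio of H2-K1 to H2-D1 UMIs lay between 0.630 and 0.736 in 5 of the 6 sums and was 0.992 in the late CD45- sort. In that sort the Lgals1-type human EGFR+ cells held 1073 of the 1571 H2-K1 UMIs and 752 of the 1584 H2-D1 UMIs. The late CD45+ sort had a ratio of 0.736. H2-K1, H2-D1 and related class I genes share sequence, and reads of other haplotypes were mapped to the reference strain. The split between the 2 heavy chains is therefore uncertain. The part of mapping and of cell types in the ratio was not tested.

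Tumor cells of the medium sample carried far more of every member than those of the late sample. H2-D1, the other classical heavy chain, was 3761 CPM against 150, which is 25.1-fold (exact 95% interval 23.5 to 26.9). H2-K1 was 14.8-fold (13.9 to 15.8) and B2m 9.28-fold (8.83 to 9.75) higher. Among the immunoproteasome genes Psmb8 was 391 against 8.60, or 45.4-fold (34.7 to 60.4). Psmb9, the neighbour of Tap1, was 208 against 4.98, or 41.8-fold (29.3 to 61.4). The third subunit, Psmb10, was 115 against 22.6, or 5.10-fold (4.16 to 6.27). For peptide transport, Tap1 was 189 against 9.36, or 20.2-fold (15.5 to 26.9). Tap2, the partner of Tap1 in the transporter, was 88.7 against 12.5, or 7.08-fold (5.46 to 9.25). Tapbp moved least, from 137 to 45.1, a 3.03-fold difference (2.58 to 3.56). Nlrc5 rested on 42 medium and 5 late UMIs (18.2 against 0.755), or 24.1-fold (9.54 to 77.9). These intervals cover counting error only, and PCR and the spread between tumors lie outside them. The makeup of the class differed, with 342 Pdgfra-type and 17 Lgals1-type medium cells against 550 and 528 late ones. H2-K1 was 2498 against 37.1 CPM within the Pdgfra-type and 4501 against 275 within the Lgals1-type. B2m was 2726 against 84.2 and 5496 against 472. For these 2 genes the folds of the whole class were thus below those within both types.

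All 10 members were at least 2-fold lower in the late than in the medium human EGFR+ cells, where 6.49% of 17347 genes were. Their median log2 ratio was -4.11 (jackknife SE over libraries 0.15), beside 0.08 for all genes. In the early human EGFR+ cells H2-D1 stood at 312, H2-K1 at 80.3 and Psmb8 at 8.93 CPM, against 3761, 2624 and 391 in the medium ones. Tap1, Psmb9 and Nlrc5 had no UMI there, which with 112011 UMIs in all leaves an exact upper 95% limit of 32.9 CPM, above the medium level of Nlrc5.

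**Figure D2:**
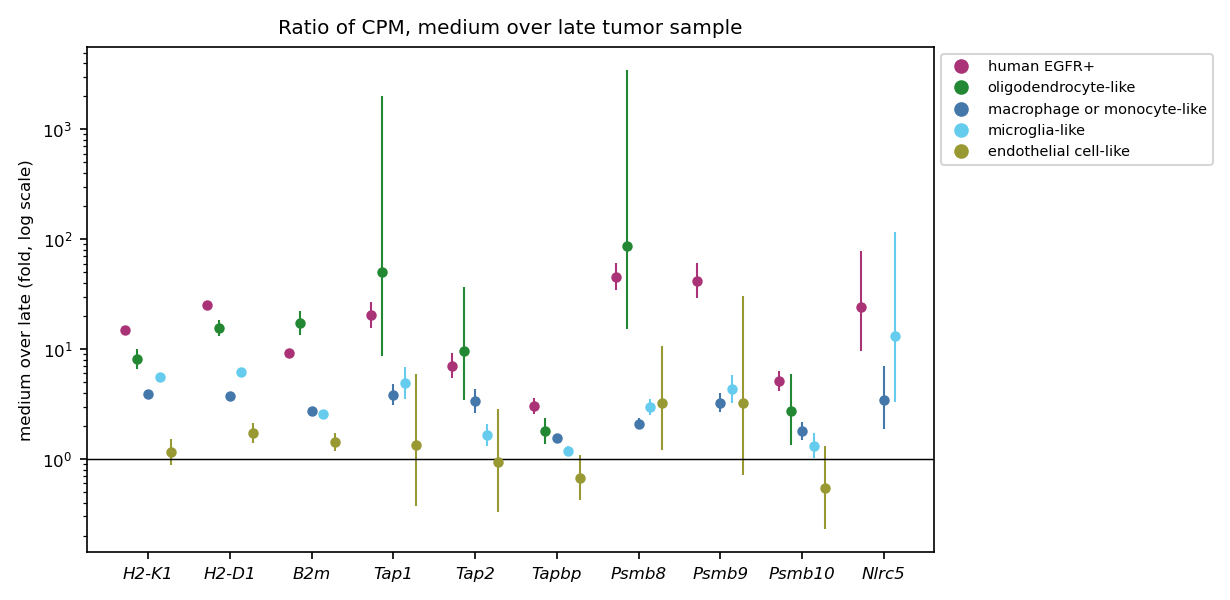
Ratio of CPM in the medium over the late tumor sample (log axis) for the 10 members in 5 cell classes. Bars are exact 95% intervals for counting error and the line marks no difference; ratios with no UMI in the late sample are left out, and H2-K1 stands at 14.8-fold in human EGFR+ and 1.16-fold in endothelial cell-like cells, whose Psmb8 and Psmb9 are at least 2-fold higher in the medium sample.

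The high level was found across the tumor clusters, the runs and both sorts. H2-K1 in the medium sample was 4501 CPM in the 17 cells of the Lgals1-type cluster, and 1576, 2683 and 2172 in the 3 Pdgfra-type clusters with 56, 241 and 45 cells. In the late sample it was 275 in the Lgals1-type cluster (528 cells) and 40.4 and 34.7 in the Pdgfra-type clusters with 297 and 253 cells. Every medium value lay above every late value. The cluster of 241 cells was formed by medium cells alone in the CD45- sort, and its leading genes included Apobec3 and Ifit3, both known to respond to interferon. By sequencing run, H2-K1 was 2571, 2587 and 2752 in medium cells against 169, 184 and 193 in late cells. Pdgfra-type cells found in the CD45+ sort, which were not part of the class, had 3271 in 167 medium cells and 98.2 in 29 late cells.

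Within the late sample, the Lgals1-type cells held more of the chains than the Pdgfra-type cells. B2m was 472 against 84.2 CPM and H2-K1 was 275 against 37.1, in 528 and 550 cells. Psmb9 was 7.17 against 1.84, while Tap2 was 11.8 against 13.6. In the medium sample B2m was 5496 in 17 Lgals1-type cells against 2726 in 342 Pdgfra-type cells. A test was not possible, since only the late sample had at least 30 cells of both types.

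RNA from leukocytes was measured beside these values. The 8 microglia markers summed to 64.4 CPM in medium human EGFR+ cells against 14851 in medium microglia-like cells, or 0.434%. At that share microglia RNA would carry 20.7 of the 2901 CPM of B2m, or 0.715%. C1qa, a complement gene of microglia and macrophages, was 1.73 in medium human EGFR+ cells and 6317 in medium microglia-like cells. The 8 T cell markers were at 0.169% of their level in T cell-like cells, and 6 of them were at 0. The 12 macrophage or monocyte markers, which include the matrix genes Vcan and Fn1 that glioma cells also express, were at 7.16%, which would carry 12.6% of B2m. The 8 dendritic cell markers were at 6.46%, which would carry 8.69%, and 3 of them were at 0. Where B2m was low these shares were large. In the early human EGFR+ cells the microglia markers would carry 33.3% of B2m and the macrophage or monocyte markers 104%, and in the late ones 5.70% and 39.5%. The dendritic cell markers would carry 175% and 161%. Normal glia carried such markers too. In astrocyte-like cells the microglia markers summed to 617 (early), 816 (medium) and 71.5 (late) CPM, a share that would carry 53.4%, 72.5% and 15.2% of B2m and 23.2%, 41.4% and 1.90% of H2-K1. Of H2-K1 they would carry 8.71%, 3.83% and 5.99% in oligodendrocyte-like and 4.78%, 8.13% and 3.16% in oligodendrocyte progenitor-like cells. The macrophage or monocyte markers, Vcan among them, would carry 160%, 147% and 127% of H2-K1 in the progenitor-like cells. The dendritic cell markers would carry 844% (early) and 1082% (late) of it in oligodendrocyte-like cells, and 108% of B2m in the medium ones, where 4 of the 8 were at 0. Such shares are larger than the levels themselves, so these markers do not give the part of dendritic cell RNA there. In the late oligodendrocyte-like cells Ptprc, the gene of CD45, was 1.0 and C1qa 3.0 CPM. The part of leukocyte RNA in these levels of tumor cells and glia was not tested.

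The difference was also seen from cell to cell. Each cell was thinned to 1000 UMIs and the UMIs of H2-K1, H2-D1 and B2m were summed. Medium human EGFR+ cells had a median of 9 chain UMIs (10th to 90th percentile 1 to 19, 351 cells), and late ones a median of 0 (0 to 2, 1034 cells). At least 1 chain UMI was found in 90.03% of the medium, 34.8% of the late and 28.9% of the 38 early cells. At least 1 UMI of the 6 transport and proteasome members was found in 60.4% of the medium and 8.70% of the late cells. Cells under 1000 UMIs were left out, 8 in the medium, 44 in the late and 6 in the early sample. Neuron or neuroblast-like cells, which should hold little class I, had a chain UMI in 9.40%, 10.53% and 7.43% of the early, medium and late cells.

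For single members, H2-K1 was detected in 74.6% of thinned medium cells (exact binomial 95% interval 69.8 to 79.1) and in 12.3% of late cells (10.3 to 14.4). Without thinning the shares were 89.7% and 35.3%, at median depths of 5946 and 4672 UMIs. Psmb8 was detected in 27.1% of thinned medium cells (22.5 to 32.0) and 0.870% of late cells (0.399 to 1.65), and in 60.7% and 3.71% without thinning. The thinned H2-K1 share in neuron or neuroblast-like cells was 2.63% (medium) and 0.676% (late), at median depths of 6067 and 3871.

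Oligodendrocyte-like cells were spread differently. Their median stayed at 0 chain UMIs in all 3 samples. The 90th percentile was 1 (early), 6 (medium) and 0 (late), and 13.2%, 29.1% and 9.29% of the cells had a chain UMI. The medium level of these glia thus came from a minority of cells, whereas in the medium human EGFR+ class 35 of 351 cells lacked a chain UMI. Microglia-like cells had medians of 5, 12 and 3.

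**Figure D3:**
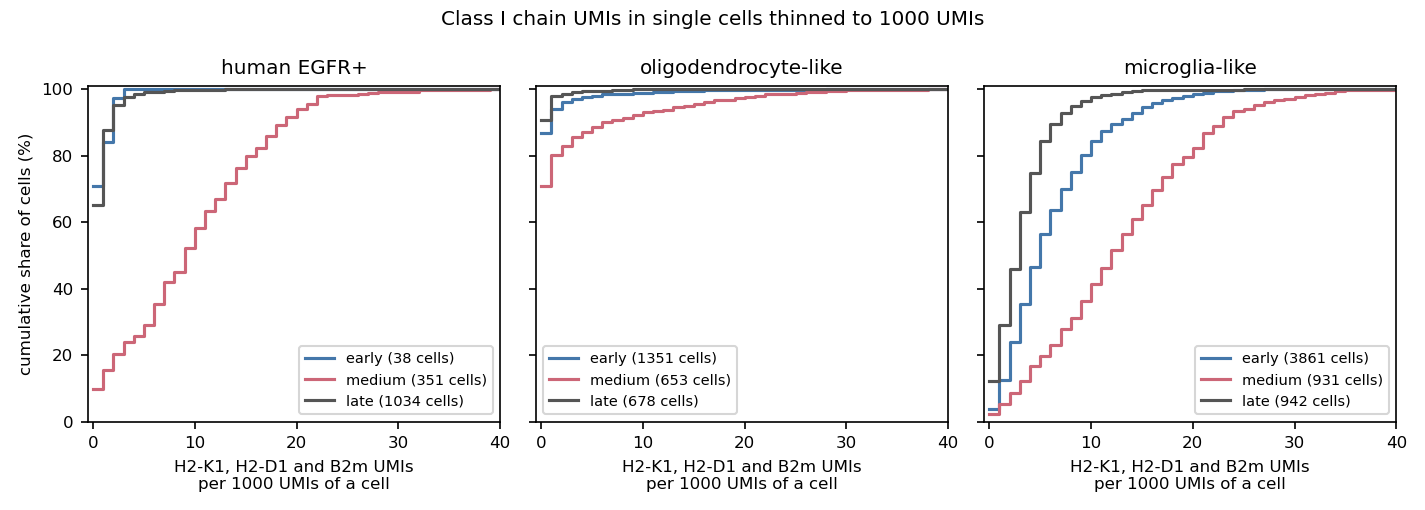
Cumulative share of cells (%) against the summed H2-K1, H2-D1 and B2m UMIs per cell after thinning to 1000 UMIs, for human EGFR+, oligodendrocyte-like and microglia-like cells of each tumor sample. Of the medium human EGFR+ cells 35 of 351 lie at 0 and the median is at 9 UMIs, while the median of the oligodendrocyte-like cells is at 0 in every sample.

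Human EGFR+ cells were then set against the glia of the same brains. Relative to oligodendrocyte-like cells, the myelinating glia, 7 of 10 members were higher in human EGFR+ cells, where 19.0% of the 15149 genes tested were called higher (edgeR, tumor sample as block). The ratio of H2-K1 was 1.01 (0.458 to 1.95) among early cells, 6.21 (5.79 to 6.66) among medium cells and 3.38 (2.76 to 4.16) among late cells. That of B2m was 2.33 (1.58 to 3.34), 5.03 (4.74 to 5.35) and 9.34 (7.32 to 12.1). Of the 44 early human EGFR+ cells 4 held a transgene UMI. In the late Pdgfra-type cells alone H2-K1 (37.1 CPM) lay below and B2m (84.2) above the oligodendrocyte-like level. The fitted log2 fold changes were 1.78 ± 0.57 (SE) for H2-K1 and 1.89 ± 0.53 for B2m, with Benjamini-Hochberg adjusted p-values from edgeR of 0.017 and 0.0066. In the fits between classes, SEs and p-values use a spread pooled over the 43 sums of all classes, with 24 residual degrees of freedom. These sums come from 3 tumor samples, so the p-values do not measure how a difference between 2 classes varied over tumors.

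The immunoproteasome and the transporter were among the members called. Log2 fold changes were 2.51 ± 0.73 for Psmb8, 3.00 ± 0.68 for Psmb9, 2.09 ± 0.44 for Psmb10, 2.55 ± 0.63 for Tap1 and 1.47 ± 0.45 for Tap2. H2-D1 (1.06 ± 0.56), Nlrc5 (1.72 ± 0.75) and Tapbp (0.09 ± 0.34) did not pass, with Benjamini-Hochberg adjusted p-values from edgeR of 0.16, 0.075 and 0.91. Among late cells Tap1, Psmb8, Psmb9 and Tap2 had 1, 1, 0 and 4 oligodendrocyte UMIs, and their late ratios are not given. The transgene was at 30.4 CPM in medium oligodendrocyte-like cells, or 1.58% of the human EGFR+ level, a share that would carry 7.94% of their B2m. Without the medium sample B2m was called, and so was Tap1, which then rested on 8 oligodendrocyte UMIs and had none in early human EGFR+ cells, so that 2 of 10 stood beside 13.6% of genes. Without the early sample, whose human EGFR+ cells mostly lacked a transgene UMI, 4 were called beside 17.7%, and without the late one 5 beside 11.7%. Without the block 4 were called beside 17.6%. With human EGFR+ cells limited to those with a transgene UMI the count was 7 beside 18.8%.

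**Figure D4:**
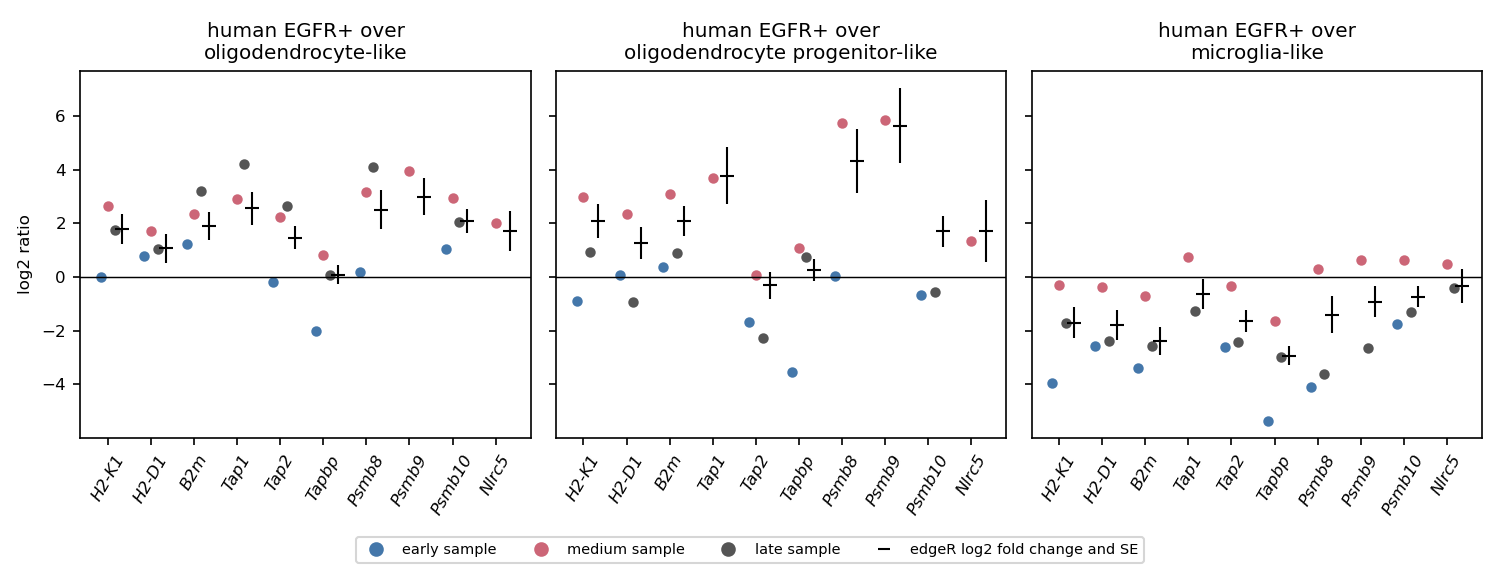
Log2 ratio of CPM in human EGFR+ cells over oligodendrocyte-like, oligodendrocyte progenitor-like and microglia-like cells for the 10 members, with 1 point per tumor sample and the edgeR log2 fold change with its SE in black. Points where either class had no UMI are left out; the medium points sit above 0 in the first panel, and in the third panel only medium points lie above 0. In the second panel the Psmb9 point rests on 1 progenitor UMI. The black marks of Tap1, Psmb8 and Psmb9 there rest on 4, 5 and 1 progenitor UMIs and are not read.

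Oligodendrocyte progenitor-like cells, the lineage whose markers the Pdgfra-type tumor cells share, had 128, 80 and 52 cells. H2-K1 (log2 fold change 2.08 ± 0.62) and B2m (2.08 ± 0.57) were higher in human EGFR+ cells, with edgeR Benjamini-Hochberg adjusted p-values of 0.023 and 0.013. Tap1, Psmb8, Psmb9 and Psmb10 also passed the threshold, but rested on 4, 5, 1 and 15 progenitor UMIs over all samples, and the first 3 passed the filter on low counts through the human EGFR+ cells. The count of calls is therefore not read against the 8.99% of genes called higher. By sample, in the order early, medium and late, Tap1 had 0, 4 and 0 UMIs, Psmb8 3, 2 and 0 and Psmb9 0, 1 and 0. Their ratios in the medium sample were 13.05 (5.06 to 48.1) for Tap1, 53.8 (14.9 to 445) for Psmb8 and 57.3 (10.2 to 2269) for Psmb9, and no fitted fold is given for them. For Psmb10 the UMIs were 10, 0 and 5, its ratio was 0.621 (0.066 to 2.92) among early and 0.677 (0.284 to 2.11) among late cells, and its fitted log2 fold change of 1.70 ± 0.58 became -0.24 without the medium sample.

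The direction against the progenitor-like cells depended on the sample. Of the 44 early human EGFR+ cells 4 held a transgene UMI, so most early cells are not marked as tumor cells by it. Among early cells Tapbp was 0.086 of the progenitor-like level (0.0021 to 0.512), and H2-K1 was 0.538 (0.233 to 1.10). In the medium sample H2-K1 was 7.95-fold (6.46 to 9.89) and B2m 8.60-fold (7.01 to 10.7) higher. Among late cells H2-K1 stood at 1.89 (1.12 to 3.47) and B2m at 1.87 (1.26 to 2.89), but H2-D1 at 0.520 (0.383 to 0.724) and Tap2 at 0.208 (0.104 to 0.471). In the late Pdgfra-type cells alone H2-K1 (37.1 CPM) and B2m (84.2) lay below the progenitor-like levels. The late progenitor-like cells also held the transgene, at 234 CPM (35 UMIs) or 12.2% of the late human EGFR+ level, a share that would carry 22.7% of their B2m and a like part of their H2-K1, and the medium ones had no transgene UMI. The part of tumor RNA or tumor cells in these glia was not tested. Without the medium sample edgeR called 0 members (3 at an unadjusted p under 0.05) beside 5.52% of genes, and without the early one 0 (7 at an unadjusted p under 0.05) beside 7.69%. Residual degrees of freedom fell from 24 to 11 in both of these fits. Without the late sample 3 were called beside 3.68% of genes, and without the block 3 beside 7.90%. These counts may include Tap1, Psmb8 and Psmb9, with their few progenitor UMIs, and are likewise not read against the shares of genes.

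Astrocyte-like cells numbered 84, 57 and 27, and their late sum was too small to enter the fit. Of the 10 members 2 were higher in human EGFR+ cells, beside 5.91% of genes. These were H2-D1 (log2 fold change 2.45 ± 0.73) and B2m (2.06 ± 0.66), with edgeR Benjamini-Hochberg adjusted p-values of 0.027 and 0.040. H2-K1 had 1.54 ± 0.69 and did not pass (edgeR, Benjamini-Hochberg adjusted p = 0.17). Only 4 of the 44 early human EGFR+ cells held a transgene UMI. Among early cells H2-D1 was higher, at 2.75 (1.56 to 4.97), while H2-K1 was lower at 0.450 (0.189 to 0.962), as were Tap2 at 0.110 (0.0026 to 0.715) and Tapbp at 0.072 (0.0017 to 0.442). In the medium sample the ratios were 10.95 (8.43 to 14.5) for H2-D1 and 8.02 (6.21 to 10.54) for B2m. In the late sample they were 1.57 (0.611 to 5.78) on 4 astrocyte UMIs and 6.56 (1.81 to 54.2) on 2. The microglia markers of the astrocyte-like cells, at 617, 816 and 71.5 CPM, differed between these samples. The transgene stood at 129 CPM (21 UMIs) in the medium and 119 (5 UMIs) in the late astrocyte-like cells, or 6.69% and 6.19% of the human EGFR+ level, shares that would carry 53.6% and 40.6% of their B2m and 40.9% and 9.20% of their H2-K1. The early ones had no transgene UMI. The part of microglia and tumor RNA in the comparison was not tested. Without the late sample 1 member was called beside 2.83% of genes, and edgeR without the block called 0 (1 at an unadjusted p under 0.05) beside 5.22%.

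Against microglia-like cells, the resident macrophages of the brain, 5 of 10 members were lower in human EGFR+ cells and 0 higher, where 18.2% of genes were called lower. The members lower were H2-K1 (log2 fold change -1.70 ± 0.56), H2-D1 (-1.79 ± 0.57), B2m (-2.39 ± 0.54), Tap2 (-1.65 ± 0.42) and Tapbp (-2.94 ± 0.36). The edgeR Benjamini-Hochberg adjusted p was 0.018 for H2-K1, 0.00075 for B2m and 2.0e-09 for Tapbp. As in the fits above, these p-values use the spread pooled over the sums of all classes and not that over tumors. Psmb8, Psmb9, Psmb10, Tap1 and Nlrc5 had log2 fold changes from -1.40 to -0.34 and did not pass.

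The ratio of human EGFR+ to microglia-like cells differed between the samples, of which the early one held mostly cells with no transgene UMI. H2-K1 in human EGFR+ cells was 0.064 of the microglia-like level in the early (0.029 to 0.121), 0.812 in the medium (0.783 to 0.842) and 0.303 in the late sample (0.279 to 0.329). B2m was 0.096, 0.607 and 0.167 of it. In the medium sample the interval lay below 1 for 5 members, beside 17.5% of all genes, and above 1 for 4, near the share of 45.7%, with ratios of 1.69 (1.43 to 2.01) for Tap1, 1.24 (1.11 to 1.38) for Psmb8, 1.55 (1.32 to 1.82) for Psmb9 and 1.57 (1.27 to 1.95) for Psmb10. In the late sample it lay below 1 for 9 members, beside 19.9% of genes. Psmb8 was 0.081 (0.059 to 0.109) and Psmb9 0.159 (0.101 to 0.247) of the microglia-like level. Without the medium sample 9 members were called lower, all but Nlrc5, beside 15.7% of genes, and the log2 fold change of Psmb8 was -4.16. Without the early sample 2 were called lower beside 17.6% of genes, without the late one 2 beside 12.4%, and without the block 1 beside 16.9%, so that these counts lay near the share of all genes.

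Macrophage or monocyte-like cells, which include cells recruited from blood, had more H2-K1 than microglia-like cells in each of the 3 samples. The ratio of H2-K1 was 2.16 (2.03 to 2.30) among early cells, 1.27 (1.23 to 1.31) among medium cells and 1.80 (1.68 to 1.94) among late cells. For B2m it was 1.41 (1.34 to 1.48), 1.07 (1.04 to 1.10) and 1.01 (0.959 to 1.05). By edgeR 0 of 10 members passed in either direction, beside 5.56% of genes called higher. At an unadjusted p under 0.05 there were 3, Tap1, Psmb10 and Nlrc5, and DESeq2 called 0 (1 at an unadjusted p under 0.05). Set against this class, human EGFR+ cells of the medium sample were lower for 7 of 10 members by the interval of the ratio, beside 16.7% of genes, with 0.641 (0.622 to 0.662) for H2-K1, 0.568 (0.552 to 0.585) for B2m, 0.824 (0.756 to 0.896) for Psmb8 and 0.770 (0.659 to 0.899) for Psmb10. For 3 members the interval held 1, with 1.03 (0.915 to 1.17) for Psmb9, 0.937 (0.826 to 1.06) for Tap1 and 0.820 (0.542 to 1.23) for Nlrc5. Among late cells all 10 lay below 1, beside 15.6% of genes, Nlrc5 on 5 human EGFR+ UMIs, Psmb9 at 0.081 and Tap1 at 0.178.

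The stage differences were then followed within the other classes. In oligodendrocyte-like cells 8 of 10 members were at least 2-fold higher in the medium than in the early sample, beside 7.04% of genes, with a median log2 ratio of 2.32 (jackknife SE 0.36). H2-K1 was 5.32-fold higher (4.66 to 6.09), H2-D1 6.23-fold (5.72 to 6.80), B2m 4.70-fold (4.22 to 5.25) and Tap1 13-fold (5.90 to 33.8). From early to late, 8 members reached the minimum of 10 UMIs, and 5 of them were at least 2-fold lower (H2-D1, B2m, Tap2, Psmb8 and Psmb9), beside 5.23% of genes, with a median of -1.58. With Tap1 (7 early UMIs and 1 late) and Nlrc5 (2 and 0), which lay under the minimum, the median was -1.46 (SE 0.61). B2m fell from 123 to 33.5 CPM and H2-D1 from 182 to 73.5. Within sequencing run 3 the median over all 10 was -0.28. From medium to late, 9 of 10 members were at least 2-fold lower beside 5.38% of genes, with B2m 17.2-fold (13.5 to 22.3) and H2-D1 15.4-fold (13.1 to 18.3) higher in the medium sample. Psmb9 and Nlrc5 had no UMI in the late sample, against 30 and 10 in the medium one.

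In both myeloid classes H2-K1 and B2m were likewise highest in the medium and lowest in the late sample. In microglia-like cells 7 of 10 members were at least 2-fold higher in the medium than in the early sample, beside 5.89% of genes, with a median log2 ratio of 1.14 (SE 0.10). H2-K1 was 2.56-fold higher (2.48 to 2.65) and B2m 1.60-fold (1.56 to 1.64). In the late sample 4 of 10 were at least 2-fold lower than in the early one, beside 4.82% of genes, with a median of -0.77 (SE 0.05). From medium to late, 7 of 10 were at least 2-fold lower, beside 4.28% of genes, with H2-D1 6.15-fold (5.83 to 6.49) higher in the medium sample. Tapbp, Tap2 and Psmb10 differed by 1.19-fold (1.07 to 1.32), 1.65-fold (1.32 to 2.07) and 1.33-fold (1.02 to 1.72). The medium to late median was -1.83 over the whole class. The makeup of the class differed between samples. Its cluster with Cd74 and Ciita among the leading genes held 94 of 3953 early, 282 of 932 medium and 45 of 990 late cells. Within the 7 clusters of the class that median lay between -1.97 and -1.07. The medium to early median lay between 0.59 and 1.00 within them, below the 1.14 of the class in each, with 2 to 4 members at least 2-fold higher. The late to early one lay between -1.07 and -0.35.

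In macrophage or monocyte-like cells 0 of 10 members were at least 2-fold higher in the medium than in the early sample, beside 11.1% of genes, with a median log2 ratio of 0.46 (SE 0.15). In the late sample 6 of 10 were at least 2-fold lower than in the early one, beside 10.6% of genes, with a median of -1.24 (SE 0.15). H2-K1 was 2.58-fold (2.40 to 2.78) and B2m 2.24-fold (2.11 to 2.37) higher in the early sample. From medium to late 8 of 10 were at least 2-fold lower, beside 7.18% of genes, with a median of -1.72. The makeup of the class moved with the stage as well. Its cluster with Cxcl9 and Ifi44l among the leading genes, both known to respond to interferon, held 42 early, 913 medium and 9 late cells. The cluster with Arg1 and Spp1 among them held 56, 118 and 570, and the one with Ccr2 and Ly6i among them held 69, 220 and 30. Within the Arg1 cluster H2-K1 was 2755, 3046 and 1043 CPM and B2m 4079, 4195 and 1837, and the median of the members from medium to late was -0.72. Within the Ccr2 cluster it was -0.89. From early to late the medians were -0.67 and -0.64 in these clusters, with 4 and 2 members at least 2-fold lower. In both clusters these differences were less than over the whole class. The Cxcl9 cluster had too few late cells for a value, and the part of the makeup was not tested.

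In endothelial cell-like cells 9 members reached 10 UMIs, and 2 of them, Psmb8 and Psmb9, were at least 2-fold lower from medium to late, beside 13.7% of genes, with a median of -0.32. Nlrc5 had no UMI there in either sample. Whether stage differences differed between classes could not be tested with 1 tumor sample per stage.

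Other genes of the class I pathway were counted by list. In human EGFR+ cells all 20 interferon-stimulated genes of the list were at least 2-fold lower in the late than in the medium sample, where 6.49% of all genes were (median log2 ratio -3.64), and so were 8 of the 13 non-classical and class I-like genes with at least 10 UMIs (-2.68). Of the 11 other 20S core proteasome subunits 0 were, with a median of -0.18. Of 8 constitutive catalytic subunits and activators 1 was, of 10 loading chaperones and trimming peptidases 2, and of 10 transcription factors 2. Irf1, an activator of class I promoters, was 17.9 (2 UMIs), 179 and 30.5 CPM in human EGFR+ cells of the early, medium and late samples. The transgene was 500, 1926 and 1927 there, and the receptor gene Ifngr1 89.3, 69.6 and 77.6. The part of these genes in the class I levels was not tested.

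The same lists were counted in normal cells. In oligodendrocyte-like cells 12 of the 15 interferon-stimulated genes with at least 10 UMIs were at least 2-fold higher in the medium than in the early sample, beside 7.04% of all genes (median 2.60), 8 of 10 non-classical genes were (1.59), and of 11 other 20S core subunits 0 were (-0.02). In microglia-like cells 14 of 20 interferon-stimulated genes were at least 2-fold higher in the medium sample (1.65), beside 5.89% of all genes. Ifng, the gene of interferon gamma, was 279, 408 and 122 CPM in the T cell-like cells of the early, medium and late samples, and 19.97, 42.9 and 6.34 in the whole CD45+ sort. In the CD45- sort it had no UMI, with exact upper 95% limits between 0.350 and 0.562 CPM. The order of Ifng over the 3 samples was that of H2-K1, H2-D1 and B2m in the CD45+ sort. Its part in the class I levels was not tested.

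In the tests between classes the lists are given beside the share of all genes called in the same direction. Relative to oligodendrocyte-like cells, 12 of 19 interferon-stimulated genes tested and 10 of 12 non-classical genes were higher in human EGFR+ cells, and of 11 other 20S subunits 0 passed (edgeR), beside 19.0% of all genes. At least 10 oligodendrocyte UMIs stood behind 9 of these 12 interferon-stimulated and 9 of these 10 non-classical genes. Irf1 (log2 fold change 4.09 ± 0.55) and the guanylate-binding protein gene Gbp2 (3.97 ± 0.87) were among the largest, while Ifitm3, an antiviral membrane protein, and the lipid-presenting Cd1d1 had only 4 and 3 UMIs there. The proteasome activator genes Psme1 (1.47 ± 0.33) and Psme2 (1.19 ± 0.33) were higher as well. Relative to oligodendrocyte progenitor-like cells 5 of 11 other 20S subunits were higher, beside 8.99% of all genes, all with at least 10 progenitor UMIs. Of the non-classical genes 5 passed and 4 of these had at least 10 progenitor UMIs, H2-Q7 with a log2 fold change of 2.35 ± 0.66 among them. The 5 interferon-stimulated genes that passed had 0 to 2 progenitor UMIs each and are not counted. Relative to astrocyte-like cells 4 of 12 non-classical genes passed, 2 of them with at least 10 astrocyte UMIs, beside 5.91% of all genes, and the 1 interferon-stimulated gene that passed had fewer.

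Relative to microglia-like cells, 6 of 12 non-classical genes were lower in human EGFR+ cells, among them Hfe (-4.55 ± 0.60), which acts in iron uptake, and the Fc receptor gene Fcgrt (-2.31 ± 0.36), beside 18.2% of all genes called lower. Of the 10 loading chaperones and trimming peptidases 5 were lower, Lnpep with -2.21 ± 0.35, and Irf1 was lower at -1.88 ± 0.44. Of 19 interferon-stimulated genes 4 were higher, beside 21.1% of all genes called higher, and 1 was lower. In the sort comparison 12 of 14 non-classical genes and 10 of 20 interferon-stimulated genes were higher in CD45+ cells, beside 20.4% of all genes, with H2-Q7 at 3.02 ± 0.37 and Irf7 at 2.70 ± 0.31. Between macrophage or monocyte-like and microglia-like cells, Ifitm3 (4.55 ± 0.67) and Irf7 (3.64 ± 0.56) were among the 8 of 19 interferon-stimulated genes higher in the former, beside 5.56% of all genes, while no member passed.

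The genes outside the lists whose levels ran closest to the 10 members over the 43 sums of class and sample were Cd74 (Pearson r = 0.91), H2-Aa (0.91), Zbp1 (0.91), H2-Eb1 (0.90) and 1700034H15Rik (0.88). The sums share tumor samples and libraries, so r is a description. Cd74, H2-Aa and H2-Eb1 belong to MHC class II presentation. In human EGFR+ cells H2-Eb1 was 0, 327 and 0.302 CPM in the order early, medium and late, and Cd74 was 8.93, 112 and 1.21. In microglia-like cells H2-Eb1 was 574, 5527 and 161 and Cd74 was 1446, 9727 and 456. Zbp1, an interferon-inducible sensor of nucleic acids, was 0, 42.0 and 0.906 in human EGFR+ cells.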

How the data were processed

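Cells of 3 tumor samples, each sorted into CD45+ and CD45-, were measured by inDrop sequencing. The authors mapped reads to a GRCm38 transcriptome with added transgenes (RapMap within bcbio-nextgen) and deposited raw UMI counts per gene and cell, not normalized. Run, sort and stage came from a text annotation of the libraries (unit: other), also deposited. The study also removed ambient RNA and doublets, and whether before this table was written was not stated. Of the cell columns 0 were left unused. Some items of the genotype and of the gene lists are not reported here.

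Cells with at least 500 UMIs, at least 500 genes and at most 20% mitochondrial UMIs were kept (17894), and Scrublet called 139 of 17786 cells tested (0.782%), which were removed. The rest were clustered (scanpy 1.11.5, Leiden, resolution 2, 2000 variable genes, 40 components) with the members and list genes left out. A cluster was named from at least 3 markers that were 2-fold higher and in at least 10% of its cells.

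UMIs were summed per sample and sort (6 sums, 2 residual degrees of freedom) or per class and sample (43 sums of at least 30 cells, 24 residual degrees of freedom), the glia, tumor and stroma from CD45- and leukocytes from CD45+. They were tested with edgeR 4.0.16 (quasi-likelihood, TMM, filterByExpr, two-sided, Benjamini-Hochberg over all genes, threshold 0.05), with the tumor sample as block. The 3 tumor samples are the stages of the library annotation and not the 3 deposited samples, which are sequencing runs. The pairing comes from that annotation and the protocol in the labels, by which both sorts of a stage are 1 tumor sample. Deviations of sums of the same sample had median correlations of 0.282 to 0.382 between sorts and 0.036 to 0.075 between classes. After the real fits, edgeR was also run on counts simulated with known changes, the fitted dispersion and no stage effect. Stage ratios had a prior of 0.5 counts, a minimum of 10 UMIs, and exact 95% intervals, and their SE is a jackknife over libraries. Total UMIs per sort and stage were 5366987 to 10814467. Members, lists and tests were chosen with earlier results of these data known. Named genes are the members, up to 4 genes per list and comparison with the largest change past the threshold, and the 5 genes outside the lists nearest by Pearson r. Irf1, Ifng, Ifngr1, C1qa and some markers were named beside them after their values were seen. Alternatives were DESeq2 1.42.0, no TMM, no count filter, no block, each sample left out, other cell filters and class rules, and thinning to 1000 UMIs. Chosen after seeing the data were 1 cell per barcode, clusters at resolution 1, human EGFR+ cells with a transgene UMI and stage values within clusters of at least 30 cells.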

Additional observations from a re-analysis of the deposited data

Results flagged for a closer look

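Libraries of the same stage and sort were compared in 50 groups of 4, and 7 (14%) held a library apart from the other 3, where chance flags about 1 in 20. Values are CPM of a library. In the CD45+ sort, Tap1 was 99.5 in an early library of 132 cells (the others 55.4 to 62.7), Nlrc5 was 25.1 in a medium library (15.7 to 16.8), and another medium library had Psmb10 at 113 (106.3 to 106.4) and Tap2 at 99.5 (126 to 130.2). In the CD45- sort, Tapbp was 68.4 in an early library (90.6 to 94.6), Tap2 was 40.7 in a medium library (62.2 to 65.3), and Psmb9 was 7.07 in a late library (3.87 to 4.31). None of the chains H2-K1, H2-D1 and B2m was among them. The cause was not tested.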

How the results depend on the processing

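With 3 tumor samples and 1 per stage, many calls moved with the sample left out. Without the medium sample, calls fell from 7 to 2 against oligodendrocyte-like cells and rose from 5 to 9 against microglia-like cells. Members called higher in CD45+ cells were 10 under every alternative but the fit without the replicate block (3). Without the replicate block, members called higher in human EGFR+ cells were 4 against oligodendrocyte-like, 3 against oligodendrocyte progenitor-like and 0 against astrocyte-like cells, and members called lower than in microglia-like cells 1. Leaving out each sample gave 2 to 5, 0 to 3, 1 and 2 to 9 in these comparisons. Over all alternatives, the share of all genes called the same way was 12.6% to 21.3% between sorts, 9.43% to 28.6% against oligodendrocyte-like, 3.68% to 9.36% against oligodendrocyte progenitor-like and 1.82% to 6.92% against astrocyte-like cells, and 8.31% to 19.3% lower than in microglia-like cells. The counts against oligodendrocyte progenitor-like cells may include Tap1, Psmb8 and Psmb9, with few progenitor UMIs, and are not read against that share. Against microglia-like cells 3 members were lower without TMM factors, 3 with a class per cell, 3 with sums of at least 100 cells and 3 with human EGFR+ cells that held a transgene UMI. Against astrocyte-like cells the count was 5 with every gene tested, 0 with a class per cell, 0 with clusters at resolution 1 and 4 with a transgene UMI. Between macrophage or monocyte-like and microglia-like cells 3 members were higher with every gene tested, 2 with a class per cell, 2 with sums of at least 100 cells and 2 at resolution 1. The cause was not tested.

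Directions (log2 fold changes) turned for Tapbp against oligodendrocyte-like cells (-0.0041 with every gene, and -0.54 to 0.28 with a sample left out, negative without the medium one). Against oligodendrocyte progenitor-like cells a sample left out gave -0.39 to 1.87 for H2-D1, -0.78 to 1.00 for Tapbp and -0.24 to 2.49 for Psmb10, negative without the medium sample, and -1.32 to 0.29 for Tap2, positive without the late one. They also turned with a class per cell for Tap2 (0.19), and with DESeq2 for Tapbp (-0.028). Against microglia-like cells Nlrc5 turned without TMM (0.18), with a class per cell (0.28) and with sums of at least 100 cells (0.065), and between the myeloid classes Tap2 (-0.029 to 0.75 with a sample left out, negative without the early one). Other member values kept their direction in these fits.

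Median stage ratios (log2, over all 10 members) kept their sign in every alternative run over the classes. Leaving out a library gave -0.80 to -0.73 and 1.05 to 1.18 in microglia-like cells (late and medium against early), -1.34 to -1.15 and 0.34 to 0.54 in macrophage or monocyte-like cells, -1.76 to -0.99 and 2.15 to 2.58 in oligodendrocyte-like cells, and -4.18 to -4.01 in human EGFR+ cells (late against medium). In microglia-like cells the late ratio was -0.70 as a mean over cells and -0.66 with a class per cell, and the medium ratio 0.98 with doublets kept and 1.02 within run 3. With a class per cell, macrophage or monocyte-like cells had -1.05 and 0.20, and oligodendrocyte-like cells 1.93 (medium). Oligodendrocyte-like cells had -0.28 (late) within run 3, and 1.55, 1.79 and 3.00 (medium) within runs 1, 2 and 3. Human EGFR+ cells had -3.68 thinned and -3.86 within run 2.

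Over all genes, the split of higher to lower calls moved with the scaling. Without TMM it went from 3768 and 4738 to 2589 and 6564 between sorts, and against oligodendrocyte-like cells from 2881 and 1969 to 4331 and 1275. Against microglia-like cells it went from 3195 and 2761 to 5093 and 1755 (DESeq2 3636 and 2269). The median of all genes moved by scaling from -0.04 to -0.40, 0.11 to 0.51 and 0.04 to 0.55 in these. Against oligodendrocyte progenitor-like cells DESeq2 gave 996 and 1291 and no TMM 1070 and 1285 (1362 and 884), against astrocyte-like cells DESeq2 529 and 1393 (896 and 1045), and between the myeloid classes 843 and 725 became 801 and 843 without TMM. Calls higher fell to 1768 of 2881 without the late sample, to 558 to 783 of 1362 and to 285 to 538 of 896 under other class rules or left-out samples, and ran from 472 to 1405 between the myeloid classes.

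Against astrocyte-like cells no fit was made without the early or medium sample or with sums of at least 100 cells, nor against oligodendrocyte progenitor-like cells with sums of at least 100 cells or at resolution 1. Lgals1-type and Pdgfra-type cells were not tested in any setting, for lack of sums. Sums of few cells, and the 373 UMIs of Nlrc5 over all deposited cells, limit the precision.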
